A study of Danio rerio with 4 samples.

Results

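The skeletal muscle myosin heavy chain genes of zebrafish were described in the heads of noc4l mutants and of their siblings. Members were taken by symbol from the Ribo-seq table: myhz1.1, myhz1.2, myhz1.3, myhz2, myha and myhb for fast muscle, and smyhc1, smyhc2 and smyhc3 for slow muscle. All 9 symbols were found. The symbol myhz1.1 stands on 2 gene IDs, ENSDARG00000067990 and ENSDARG00000102414, and the second is named myhz1.1l in the annotation table and here. This gave 10 genes, 7 fast and 3 slow, of the 25196 gene IDs of the Ribo-seq table, all of which were also in the RNA-seq table of 26662 IDs.

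The study asked how loss of noc4l, a gene of ribosome biogenesis, changes RNA and its translation in the developing head. The mutants were homozygous for a short CRISPR/Cas9 deletion in the fourth exon of noc4l, and the controls were siblings, whose genotype the labels give as WT. Whether heterozygotes were among the siblings is not stated. Both groups were collected at 5 dpf, and only the severed heads were used, so most of the trunk muscle was left out. Each group had 1 RNA-seq library, made from polyadenylated RNA, and 1 Ribo-seq library, made from the RNA fragments that ribosomes protect from nuclease, here called footprints. The sources used here do not say how many heads went into a library, and with 1 library per assay and genotype no difference has a replicate check. All intervals below are at 95% and cover counting error only.

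Myosin heavy chain is the motor protein of the thick filament: its head domain hydrolyses ATP and pulls on actin, and its tail packs with other tails into the filament. Vertebrates carry several sarcomeric heavy chain genes, and the one a fibre uses sets much of its contraction speed, fast in the twitch fibres for escape swimming and slow in fibres for sustained movement. In the zebrafish larva, smyhc1 is the heavy chain of the first slow fibres of the trunk, and smyhc2 and smyhc3 are known from later slow fibres, among them those of the jaw, eye and pectoral fin muscles. In the head, these proteins move the jaw, the gill arches and the eyes.

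These genes belong to a family of related copies, whose sequences were not compared here, and reads shared between them can bear on the values below. In the annotation table, which follows the GRCz12tu assembly, myhz2, myhc4, myha, myhz1.3, myhz1.2 and myhz1.1 stand next to each other in that order, and so do smyhc1, smyhc2 and smyhc3, while myhb and myhz1.1l lie elsewhere. A read that matches several copies can be split between them, and a split leaves a count that is not whole. Counts were called whole within 1e-06 of a whole number. Among all genes above 0, 88.4% of RNA counts in the mutant library and 88.4% in the sibling library were whole numbers. Among the 10 members only myhb had a whole RNA count, in both libraries, and no member had a whole footprint count, against 76.7% of all genes above 0 in the mutant and 79.5% in the sibling Ribo-seq library. The sources used here do not say how shared reads were divided, so the division of counts between neighbouring copies is uncertain, and sums over the copies depend on it less.

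Counts summed to 17395024 in the mutant and 15018488 in the sibling RNA-seq library, and to 19823848 in the mutant and 12181046 in the sibling Ribo-seq library. The 4 most abundant loci of the Ribo-seq table took 19.0% of the mutant and 51.1% of the sibling footprint counts. The deposited TPM include these loci, so TPM of a footprint library can be compared between genes of that library, but not directly between genotypes. Ratios of mutant to sibling were therefore taken from counts scaled by TMM, which sets the bulk of genes to no change, and are given as log2 values. The words rose and fell are kept for ratios past 2-fold, in genes whose mutant and sibling counts summed to 100 or more in the assay. Scaling by total counts instead would add 0.08 to every RNA and 0.71 to every footprint log2 ratio. It puts the median of all genes at 0.09 for RNA, 0.74 for footprints and 0.62 for translation efficiency. A footprint value between -0.71 and 0 thus has the other sign under that scaling. Shares of all genes past 2-fold were taken under TMM only. Counts of genes that rose or fell under total counts have no such share beside them. The paper reported lower overall protein synthesis in the mutants, and neither scaling can show a change in total translation. The noc4l transcript itself had 45 RNA counts in the mutant and 443 in the sibling library (log2 ratio -3.58, interval -4.07 to -3.15), and 15 footprint counts in the mutant and 93 in the sibling library (log2 ratio -4.01, interval -4.94 to -3.25).

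No member reached a 2-fold higher level in the mutant in either assay under TMM, and more members fell in footprints than in RNA. Of the 9 members that passed the count minimum, 1 fell at the RNA level (myhz1.1l), against 6.16% of all 17243 genes tested, and 0 rose, against 3.14%. In footprints 5 of 9 fell (myhz1.1l, myhz2, myhb, smyhc2 and smyhc3), against 3.61% of 15729 genes, and 0 rose, against 1.89%. Thus myhz1.1l fell in both assays. The others that fell in footprints had RNA log2 ratios from -0.92 (myhb) to -0.29 (smyhc2). Translation efficiency, whose change is the footprint ratio divided by the RNA ratio, fell in 3 of 9 members (myhz2, myhb and smyhc3), against 3.18% of 14455 genes, and rose in 0, against 3.55%. The median log2 ratio of the 9 members was -0.47 for RNA, -1.02 for footprints and -0.72 for translation efficiency, beside 0.01, 0.02 and -0.01 over all genes tested. The tenth member, myha, was under the minimum. In bulk heads, a change in the number of muscle cells and a change in RNA or footprints per muscle cell cannot be told apart.

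**Figure D1:**
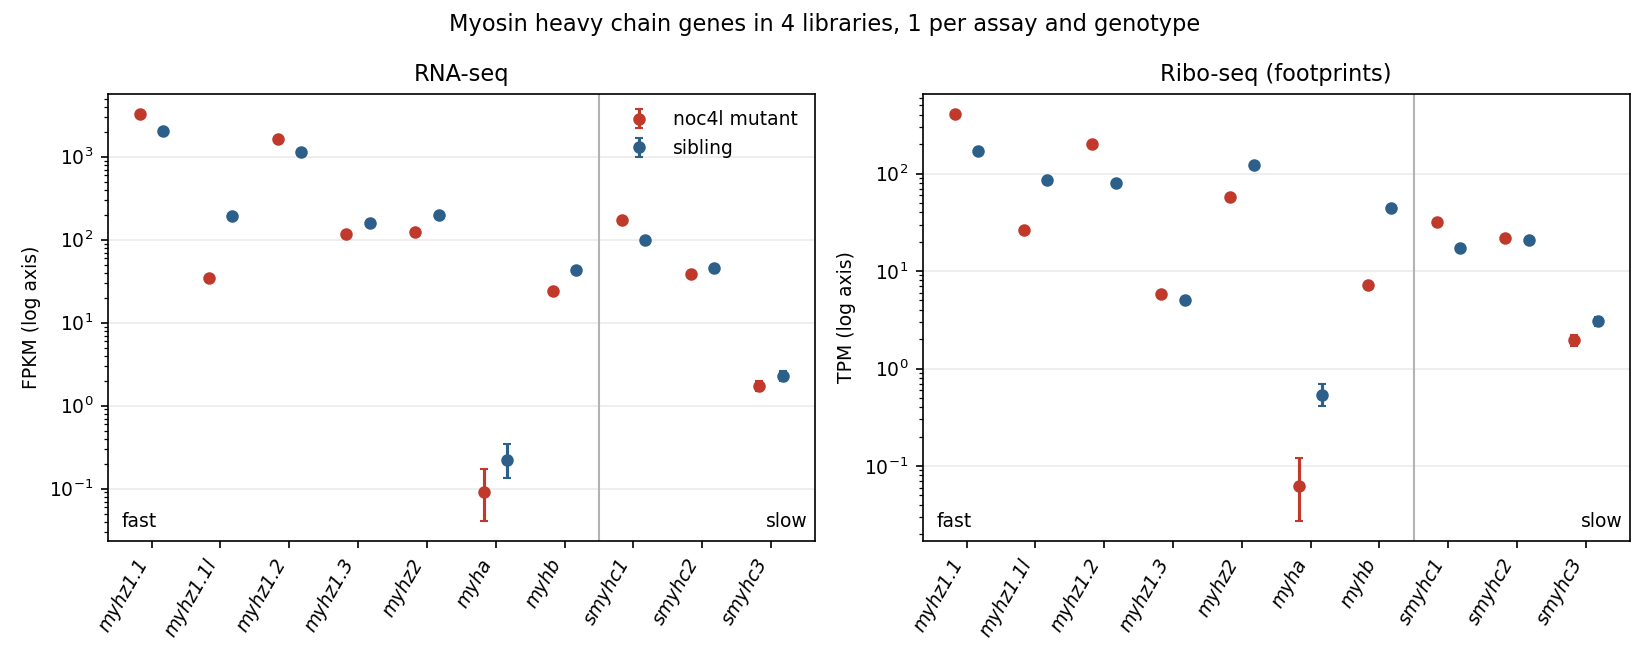
Level of each myosin heavy chain gene in each library, as FPKM for RNA-seq (left) and TPM for Ribo-seq (right), both on log axes, with noc4l mutant in red and sibling in blue. Bars are exact Poisson intervals of the counts at 95% and are mostly smaller than the symbols; myhz1.1 and myhz1.2 lead the RNA of both libraries, while in sibling footprints myhz2 and myhz1.1l stood above myhz1.2.

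Levels between genes are compared per length, as FPKM within an RNA-seq library and TPM within a Ribo-seq library. In mutant RNA the order was myhz1.1, myhz1.2, smyhc1, myhz2, myhz1.3, smyhc2, myhz1.1l, myhb, smyhc3 and myha. In sibling RNA it was myhz1.1, myhz1.2, myhz2, myhz1.1l, myhz1.3, smyhc1, smyhc2, myhb, smyhc3 and myha. The order in mutant footprints was myhz1.1, myhz1.2, myhz2, smyhc1, myhz1.1l, smyhc2, myhb, myhz1.3, smyhc3 and myha. Sibling footprints were led by myhz1.1, myhz2, myhz1.1l and myhz1.2, followed by myhb, smyhc2, smyhc1, myhz1.3, smyhc3 and myha. All neighbours in these 4 orders were apart by their counting intervals except myhz2 and myhz1.1l in sibling RNA, whose ratio was 1.02 (0.995 to 1.04). The slow gene smyhc1 thus stood in place 3 in mutant RNA and in place 6 in sibling RNA, and myhz1.2 in place 2 in mutant and place 4 in sibling footprints.

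The pair that led the RNA, myhz1.1 and myhz1.2, encode fast heavy chains and lie side by side. At the RNA level myhz1.1 had 342482 counts in the mutant and 182301 in the sibling library (3279 and 2021 FPKM), a log2 ratio of 0.62 (0.61 to 0.62). Its neighbour myhz1.2 had 172548 counts in the mutant and 101793 in the sibling library (1649 and 1127 FPKM), a log2 ratio of 0.47 (0.46 to 0.48). Both ratios were under 2-fold, the first being 1.53-fold.

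In footprints the same pair was close to the bulk of genes. The gene myhz1.1 had 55783 footprint counts in the mutant and 18605 in the sibling library (406 and 171 TPM), a log2 ratio of 0.17 (0.14 to 0.19) under TMM. For myhz1.2 there were 27325 footprint counts in the mutant and 8804 in the sibling library (199 and 80.9 TPM), a log2 ratio of 0.22 (0.18 to 0.25). In deposited TPM both were more than 2-fold higher in the mutant, a scale on which the median of all genes was itself at a log2 ratio of 0.95 with 1 TPM added. Translation efficiency had log2 ratios of -0.45 (-0.47 to -0.42) for myhz1.1 and -0.25 (-0.29 to -0.21) for myhz1.2, and both change sign under total counts, to 0.18 and 0.38, where the median of all genes is 0.62.

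The second gene with the symbol myhz1.1, here myhz1.1l, had the largest fall in RNA of the members that passed the minimum. It had 2908 RNA counts in the mutant and 14204 in the sibling library (34.2 and 193 FPKM), a log2 ratio of -2.58 (-2.64 to -2.52). It had 3026 footprint counts in the mutant and 7946 in the sibling library (26.2 and 86.6 TPM), a log2 ratio of -2.81 (-2.87 to -2.75). RNA and footprints thus both fell past 2-fold, and the log2 ratio of translation efficiency was -0.23 (-0.31 to -0.14), or 0.41 under total counts. Its RNA ratio was 3.20 log2 units below that of myhz1.1, a difference that no scaling of libraries changes.

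The gene myhz2, a fast heavy chain at the far end of the same row of genes, differed more in footprints than in RNA. It had 12868 RNA counts in the mutant and 17680 in the sibling library (124 and 197 FPKM), a log2 ratio of -0.75 (-0.79 to -0.72). It had 7894 footprint counts in the mutant and 13317 in the sibling library (57.6 and 122.5 TPM), a log2 ratio of -2.17 (-2.21 to -2.13). The library with fewer total counts, the sibling one, held more myhz2 footprints. Its translation efficiency fell by 1.42 on the log2 scale (interval -1.47 to -1.37), but by 0.79 under total counts, which is less than 2-fold.

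The fast gene myhb, which lies apart from the row, had the largest fall in footprints among members over the minimum. It had 2520 RNA counts in the mutant and 3887 in the sibling library (24.2 and 43.2 FPKM), a log2 ratio of -0.92 (-0.99 to -0.85). It had 977 footprint counts in the mutant and 4826 in the sibling library (7.12 and 44.3 TPM), a log2 ratio of -3.72 (-3.82 to -3.62). Translation efficiency fell by 2.80 on the log2 scale (interval -2.92 to -2.68), and myhb was the only member whose fall in translation efficiency stayed past 2-fold in every scaling and unit tried. Relative to myhz1.1 in the same libraries, myhb was at -1.53 (-1.61 to -1.46) in RNA and -3.89 (-3.99 to -3.79) in footprints.

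The remaining fast genes were myhz1.3 and myha, both inside the row. For myhz1.3 there were 12223 RNA counts in the mutant and 14013 in the sibling library (118 and 158 FPKM), a log2 ratio of -0.49 (-0.53 to -0.46). Its footprints were few for its RNA, with 804 counts in the mutant and 545 in the sibling library (5.85 and 5.01 TPM), a log2 ratio of -0.86 (-1.01 to -0.70). The translation efficiency log2 ratio of myhz1.3 was -0.36 (-0.53 to -0.20), or 0.27 under total counts. The gene myha was barely detected, with 9.06 RNA counts in the mutant and 19.6 in the sibling library, and 8.49 and 58.5 footprint counts in mutant and sibling. Its RNA log2 ratio was -1.36 (-2.72 to -0.20), and its footprint log2 ratio of -4.13 (-5.44 to -3.15) rests on these few and fractional counts.

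Among slow genes, smyhc1 was the most abundant in RNA. It had 17917 RNA counts in the mutant and 8899 in the sibling library (172 and 98.9 FPKM). Its RNA log2 ratio was 0.72 (0.68 to 0.75), or 1.64-fold. It had 4335 footprint counts in the mutant and 1898 in the sibling library (31.6 and 17.4 TPM), a log2 ratio of -0.22 (-0.30 to -0.15) that becomes 0.49 under total counts. Its translation efficiency log2 ratio was -0.94 (-1.03 to -0.85).

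The other two slow genes were lower in footprints under TMM. For smyhc2 there were 4001 RNA counts in the mutant and 4001 in the sibling library (39.0 and 45.2 FPKM), a log2 ratio of -0.29 (-0.36 to -0.23). It had 3021 footprint counts in the mutant and 2292 in the sibling library (22.0 and 21.0 TPM), and its log2 ratio of -1.02 (-1.10 to -0.94) lay at the edge of the 2-fold limit and was -0.30 under total counts and 0.06 in deposited TPM with 1 added. The least abundant slow gene, smyhc3, had 180 RNA counts in the mutant and 203 in the sibling library (1.73 and 2.26 FPKM), a log2 ratio of -0.47 (-0.77 to -0.17). Its footprints were 267 in the mutant and 331 in the sibling library (1.94 and 3.04 TPM), a log2 ratio of -1.73 (-1.97 to -1.49), and its translation efficiency fell by 1.26 (interval -1.63 to -0.89) on the log2 scale, but by 0.63 under total counts.

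**Figure D2:**
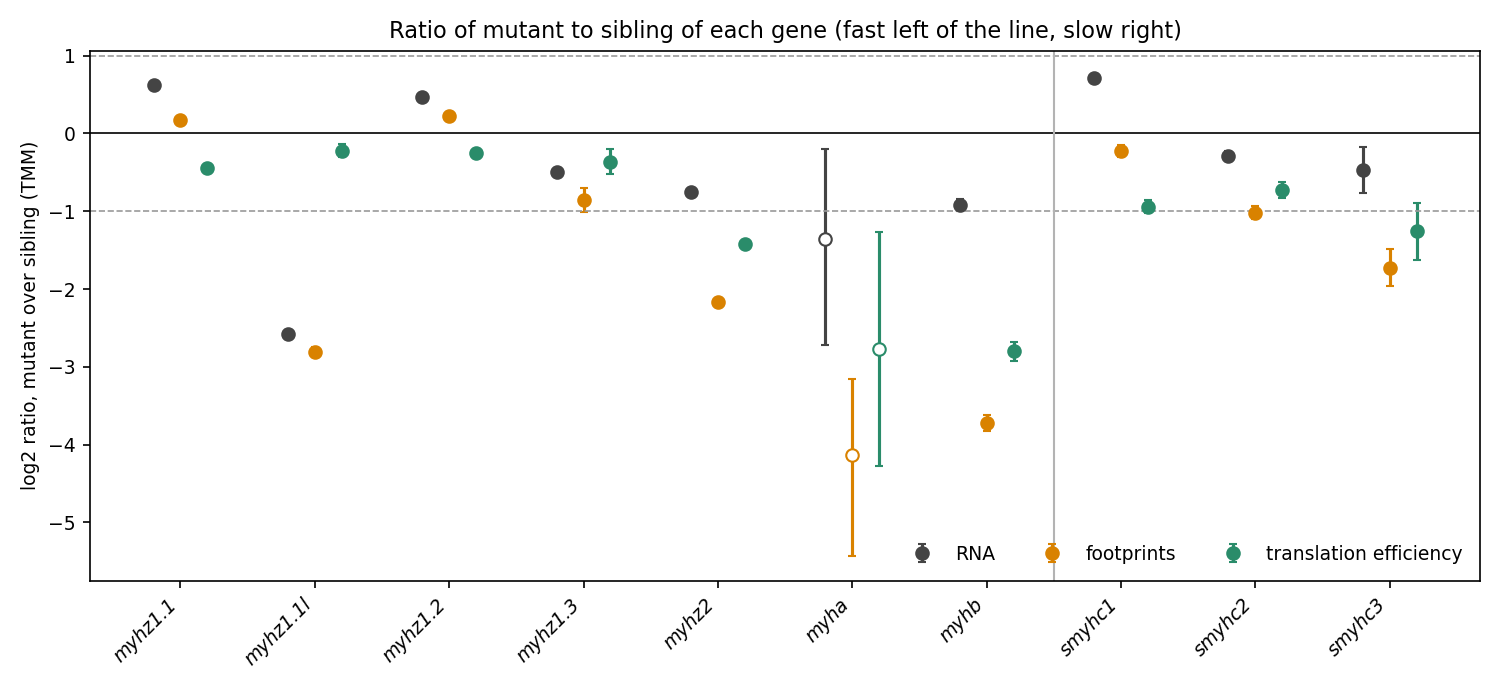
Log2 ratio of mutant to sibling under TMM for each gene, with RNA in grey, footprints in orange and translation efficiency in green, fast genes left of the vertical line and slow genes right of it. Bars are intervals for counting error at 95%, dashed lines mark 2-fold, and open symbols mark myha, which is under the count minimum; the footprint ratio of smyhc1 and the translation efficiency ratios of myhz1.1, myhz1.1l, myhz1.2 and myhz1.3 change sign under total counts.

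Fast and slow genes did not separate by their ratios. The median log2 ratio of the fast genes over the minimum was -0.62 for RNA, -1.51 for footprints and -0.41 for translation efficiency. For the slow genes it was -0.29 for RNA, -1.02 for footprints and -0.94 for translation efficiency. Under total counts the fast median for translation efficiency changes sign, to 0.23. The difference of medians, fast minus slow, does not depend on the scaling of libraries and was -0.33 (-0.40 to -0.26) for RNA, -0.50 (-0.61 to -0.38) for footprints and 0.53 (0.42 to 0.65) for translation efficiency. The footprint difference changed sign with 1 gene left out: without myhz1.1l it was 0.16, and without myhz1.1 it was -1.15. With 1 gene left out the RNA difference lay between -0.83 (without smyhc3) and -0.20 (without myhz1.1l), and that for translation efficiency between 0.43 and 0.69. In RNA and footprints the ratios within each type spread further than that. Fast genes ran from -2.58 to 0.62 in RNA and from -3.72 to 0.22 in footprints. Slow genes ran from -0.47 to 0.72 in RNA and from -1.73 to -0.22 in footprints. In translation efficiency fast genes ran from -2.80 to -0.23, but slow genes only from -1.26 to -0.72. There myhz1.1, myhz1.1l, myhz1.2 and myhz1.3 lay above all slow genes, and myhz2 and myhb lay below them.

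Summed over each type, fast and slow differed little. The 7 fast genes together had 545559 RNA counts in the mutant and 333899 in the sibling library, a log2 ratio of 0.41. The 3 slow genes together had 22098 RNA counts in the mutant and 13103 in the sibling library, a log2 ratio of 0.46. Summed footprints gave a log2 ratio of -0.59 for fast genes, on 95818 counts in the mutant and 54102 in the sibling library. For slow genes it was -0.66, on 7622 counts in the mutant and 4521 in the sibling library. Both turn positive under total counts. Summed translation efficiency had log2 ratios of -1.01 for fast genes (-1.02 to -0.99) and -1.12 for slow genes (-1.18 to -1.06) under TMM. Total counts would add 0.63 to each of these. Slow genes made up 3.89% (3.84% to 3.94%) of member RNA counts in the mutant and 3.78% (3.71% to 3.84%) in the sibling library, and 7.37% (7.21% to 7.53%) of member footprint counts in the mutant and 7.71% (7.50% to 7.93%) in the sibling library. The sum over all 10 genes and the median over the genes differ in sign for RNA, 0.42 against -0.47, since myhz1.1 and myhz1.2 hold most of the counts. As a share of all counts the 10 genes took 3.26% of mutant and 2.31% of sibling RNA. They took 0.522% of mutant and 0.481% of sibling footprints, but 0.644% of mutant and 0.984% of sibling footprints once the 4 most abundant loci were left out. The direction of this share of all footprints thus depends on those loci. Under TMM, with the loci kept, the summed footprint log2 ratio of the 10 genes was -0.60 (-0.61 to -0.58).

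The make-up of the family was also described for the fast pair that led the RNA, myhz1.1 and myhz1.2, and for the other fast genes, a grouping made after the values were seen. The pair had a summed log2 ratio of 0.56 in RNA and 0.18 in footprints, and the other 5 fast genes had -1.0 in RNA and -2.49 in footprints. Per length, myhz1.1 supplied 60.3% of the summed RNA level of the 10 genes in the mutant and 52.0% in the sibling library, and 53.6% of the summed footprint level in the mutant and 30.9% in the sibling library. The share of myhz2 in footprints was 7.60% in the mutant and 22.2% in the sibling library, that of myhz1.1l 3.45% in the mutant and 15.7% in the sibling, and that of myhb 0.939% in the mutant and 8.03% in the sibling. These shares are set within 1 library and do not depend on its scaling.

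A shift of share was also seen within the slow genes. By counts, smyhc1 held 81.1% of slow RNA in the mutant and 67.9% in the sibling library, and 56.9% of slow footprints in the mutant and 42.0% in the sibling library. The share of smyhc2 in slow footprints was 39.6% in the mutant and 50.7% in the sibling library.

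**Figure D3:**
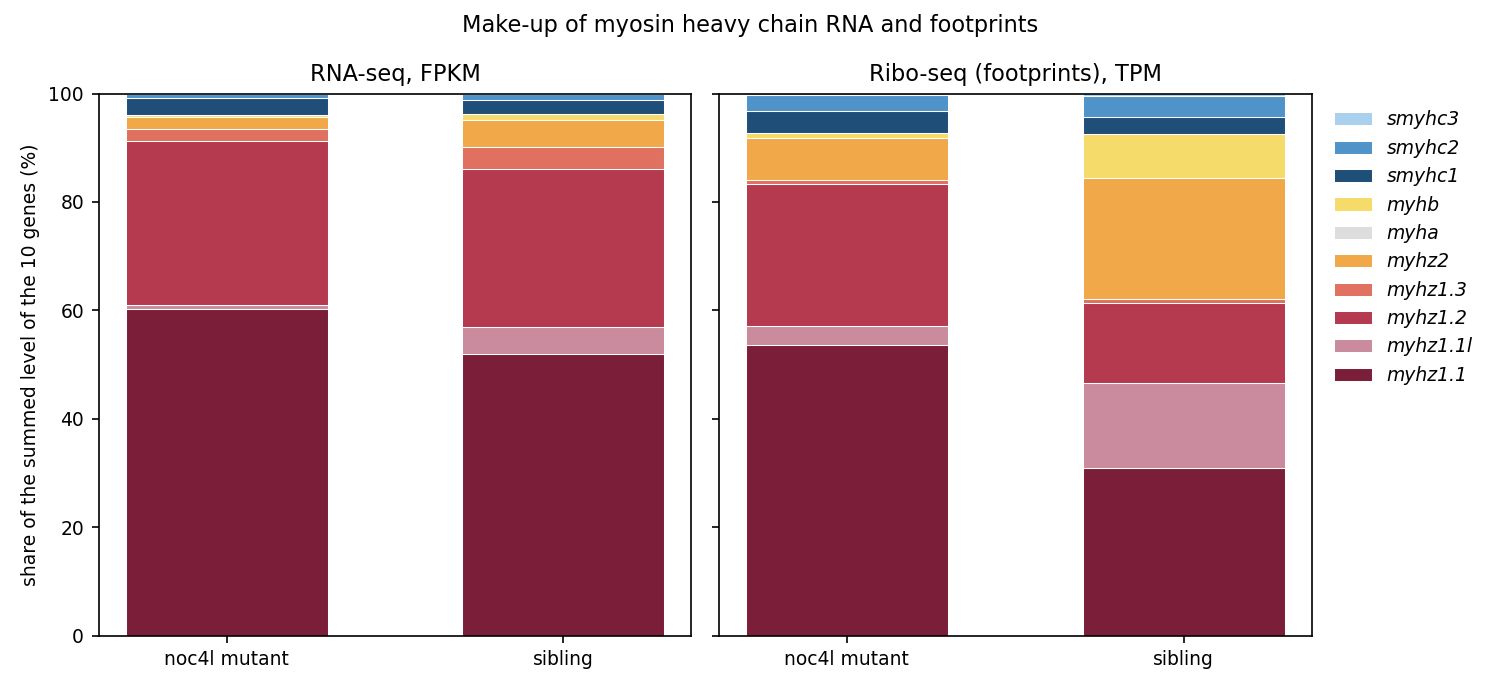
Share of each gene in the summed level of the 10 genes, in percent, for mutant and sibling RNA-seq libraries (FPKM, left) and Ribo-seq libraries (TPM, right), with fast genes in red, yellow and grey and slow genes in blue. In mutant footprints myhz2, myhz1.1l and myhb held 7.60%, 3.45% and 0.939%, against 22.2%, 15.7% and 8.03% in sibling footprints.

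Footprints per RNA differed widely between the members within a library. This level of translation efficiency is footprint CPM over RNA CPM of the same gene, and its median over 14455 genes was 0.735 in the mutant and 0.738 in the sibling. In both genotypes 3 of the fast genes were far below that median: myhz1.1 was at 0.115 in the mutant and 0.157 in the sibling, myhz1.2 at 0.112 in the mutant and 0.133 in the sibling, and myhz1.3 at 0.046 in the mutant and 0.060 in the sibling. All 3 were at or below percentile 2.46 among all genes. The gene myhb was at 0.273 in the mutant (percentile 7.82) and 1.91 in the sibling (percentile 89.0). The gene myhz2 was at 0.433 in the mutant (percentile 21.5) and 1.16 in the sibling (percentile 73.8).

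The slow genes also spread on this scale. The gene smyhc1 was at 0.171 in the mutant (percentile 2.75) and 0.327 in the sibling (percentile 12.2). The values of smyhc2 were 0.532 in the mutant and 0.879 in the sibling, and those of smyhc3 were 1.04 in the mutant (percentile 69.1) and 2.5 in the sibling (percentile 93.1). The part of reads shared between copies in these levels was not tested.

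The skeletal muscle markers had a median above 0 in RNA and, under TMM but not under total counts, below 0 in footprints. All 30 markers, none of them a member, were detected in all 4 libraries. Of these 7 rose in RNA and 0 fell (median log2 ratio 0.45), while 0 of 29 rose and 2 fell in footprints (median -0.52, or 0.20 under total counts, where 0 fell). Their translation efficiency fell in 14 of 29 and rose in 0 (median -0.99), against 3.18% of all genes that fell, and under total counts it fell in 5 and rose in 1 (median -0.36). Their summed share of RNA counts was 4.51% in the mutant and 3.08% in the sibling library, and of footprint counts 0.809% in the mutant and 0.797% in the sibling library. Relative to the markers' own medians, myhz1.1l, myhz2 and myhb were past 2-fold lower in RNA, myhz1.1l, myhz2, myhb and smyhc3 in footprints, and only myhb in translation efficiency (-1.81). The part of muscle amount in the members' values was not tested.

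**Figure D4:**
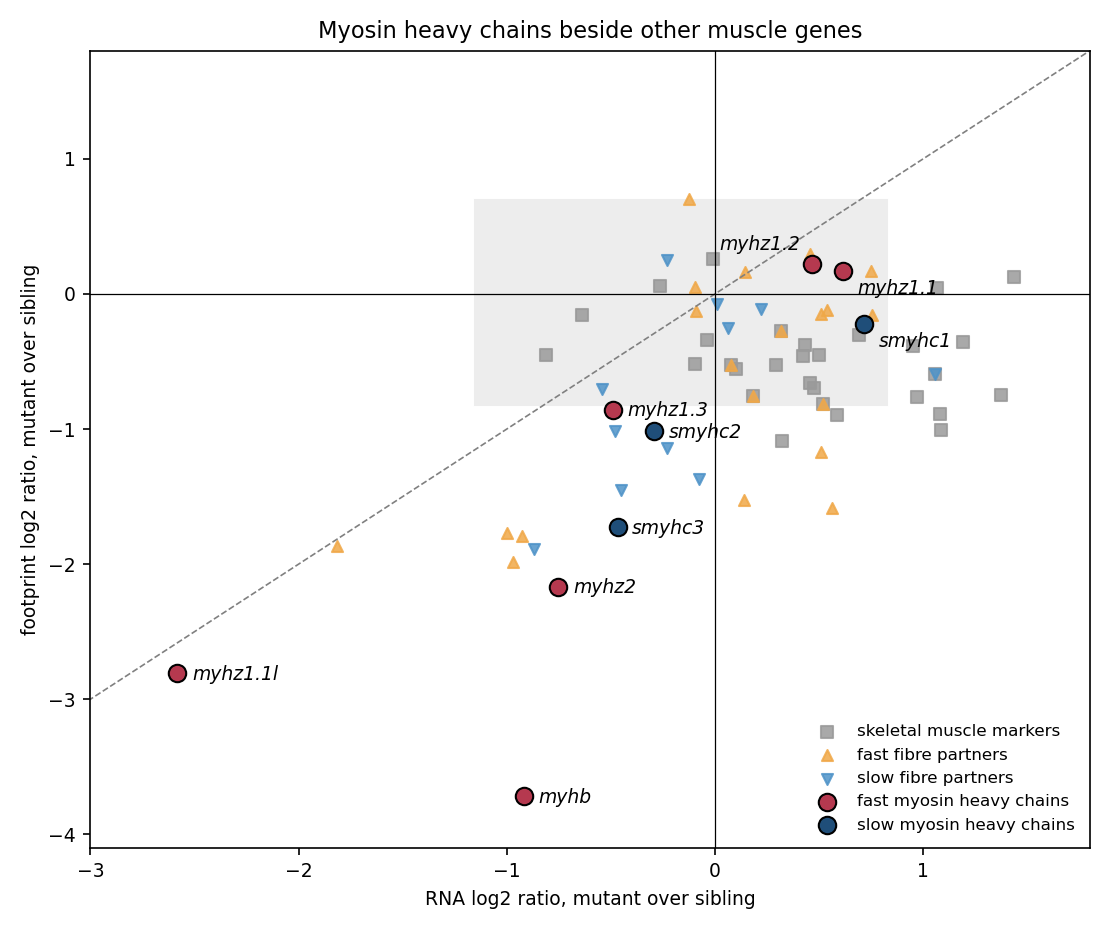
RNA log2 ratio (horizontal) against footprint log2 ratio (vertical), mutant over sibling under TMM, for the 9 myosin heavy chain genes over the minimum and for the lists of skeletal muscle markers, fast fibre partners and slow fibre partners. The grey box spans the central 90% of all genes on each axis (-1.15 to 0.83 for RNA and -0.82 to 0.70 for footprints) and the dashed line marks equal ratios; myhb lies furthest below that line, at -0.92 and -3.72, and footprint values between -0.71 and 0 change sign under total counts.

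Partners of the fast and slow fibres were followed as lists, which share some genes with the markers. Of 22 genes that work beside fast myosin, 0 rose and 2 fell in RNA (median log2 ratio 0.14), and of 20 over the minimum 0 rose and 7 fell in footprints (median -0.40, or 0.31 under total counts, where 2 rose and 4 fell). Those that fell in footprints included pvalb4, a parvalbumin that buffers calcium in fast fibres, with 2454 counts in the mutant and 3631 in the sibling library (log2 ratio -1.98), and tnni2a.1, a fast troponin I, with 569 footprint counts in the mutant and 778 in the sibling library (-1.87). Other fast troponin I genes over the minimum, named after their values were seen, spread in footprints. They were tnni2b.1 (-1.80), tnni2b.2 (-0.12), tnni2a.4 (0.17) and tnni2a.2 (0.71). Of these tnni2a.4 had the most RNA, with 23531 counts in the mutant and 11426 in the sibling library (log2 ratio 0.75). The abundant parvalbumin pvalb2 had log2 ratios of 0.14 in RNA and 0.16 in footprints, and tpma, a tropomyosin, 0.51 in RNA and -0.15 in footprints.

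Of 12 slow partners 1 rose in RNA (ryr1a, a calcium release channel, log2 ratio 1.06) and 0 fell (median -0.23), and of 11 over the minimum 5 fell in footprints and 0 rose (median -0.70, or 0.01 under total counts, where 1 fell). Among these 5 were tnni1c, a slow troponin I (-1.89), mybpc1, slow myosin-binding protein C (-1.45), and tpm2, a tropomyosin (-1.14). The gene ryr1a is also a muscle marker, and ryr1b, a marker outside both partner lists, rose in RNA too (1.37). The 6 myosin light chains, which bind the neck of the heavy chain, all stayed within 2-fold in RNA (median 0.36). In footprints 1 of them, myl1, fell (-1.07), but 0 fell under total counts (median 0.30). The most abundant light chain, mylpfa, had 4938 FPKM in the mutant and 3453 in the sibling library (RNA log2 ratio 0.43) and a footprint log2 ratio of -0.37.

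Genes of the thick filament beyond myosin itself rose in part in RNA and fell in part in footprints. Of 13, 4 rose and 1 fell in RNA (median log2 ratio 0.67), and those that rose included obscnb, an obscurin (1.28), and the giant scaffold genes ttn.1 (1.08) and ttn.2 (1.09). In footprints 4 of 12 fell and 0 rose (median -0.86, or -0.15 under total counts, where 1 fell). These 4 were mybpc1, mybpc2a, mybpc2b and ttn.2, all counted above among the partners or markers, and ttn.1 is also a marker. Translation efficiency fell in 8 of 12 (median -1.32), against 3.18% of all genes, with -1.97 for ttn.1 and -2.09 for ttn.2, and under total counts it fell in 4 (median -0.69). Both binding protein genes of fast fibres, mybpc2a and mybpc2b, fell in footprints, at -1.77 and -1.59.

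Genes that fold myosin or turn it over had higher RNA in part. Of 15, 5 rose in RNA and 0 fell (median log2 ratio 0.71). They were smyd1a, with 4059 counts in the mutant and 1348 in the sibling library, and smyd1b (1.07), methyltransferase genes needed for myosin assembly, and the muscle ubiquitin ligase genes trim55a (2.05), trim55b (1.67) and trim63b (1.13). The most abundant gene of the list, hsp90ab1, was lower, with 62854 RNA counts in the mutant and 67114 in the sibling library (log2 ratio -0.39). The summed share of the list in RNA counts was 0.473% in the mutant and 0.513% in the sibling library. In footprints 0 of 12 rose and 0 fell (median 0.09, or 0.80 under total counts, where 3 rose). The myosin chaperone unc45b, named for its role after its values were seen, had 989 RNA counts in the mutant and 527 in the sibling library (log2 ratio 0.61), and 583 footprint counts in the mutant and 196 in the sibling library (0.15). Among 17 myogenic transcription factor genes 1 rose in RNA, mef2ca (1.26), and 0 fell, and 0 of 16 rose or fell in footprints. Under total counts 1 of these 16 rose in footprints.

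Heavy chain genes of other muscle and of nonmuscle cells were set beside the members. Of 6 other sarcomeric genes 1 rose in RNA, myh6 (log2 ratio 1.08), an atrial heavy chain, and 1 fell, myhc4 (-2.82), which lies between myhz2 and myha. In footprints 0 of 6 rose and 1 fell, myh7l (-1.27), and myh6 was at -0.84. Under total counts 0 of these 6 fell in footprints (median 0.24). The myhc4 gene had 43.9 RNA counts in the mutant and 254 in the sibling library. It had 369 footprint counts in the mutant and 185 in the sibling library, a footprint log2 ratio of -0.42 (-0.68 to -0.16) under TMM. Its deposited footprint TPM went the other way from these counts, at 8.01 in the mutant and 21.8 in the sibling library, so this ratio is uncertain. Of 5 smooth muscle and nonmuscle heavy chain genes over the minimum, 0 rose and 0 fell in either assay. Their medians were 0.43 in RNA and -0.04 in footprints, or 0.67 in footprints under total counts, where 1 rose.

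Markers of other tissues were counted in the same way. Of 16 neuron markers 0 rose and 0 fell in RNA and in footprints (medians 0.06 and 0.11). Of 14 cartilage markers 2 rose in RNA and 3 in footprints and 0 fell (medians 0.62 and 0.61), and of 12 liver markers 7 fell and 1 rose in RNA and 11 fell in footprints (medians -1.10 and -3.38). In RNA, 0 of 11 skin, 2 of 14 retina and 0 of 9 heart markers fell and 0, 1 and 1 rose (medians -0.37, -0.40 and 0.54). In footprints, 2 of 11 skin, 0 of 15 retina and 2 of 8 heart markers fell and 0, 3 and 0 rose (medians -0.14, 0.13 and -0.67). The skin and heart medians for footprints turn positive under total counts, where 0 skin, 0 heart and 11 liver markers fell. In that scaling the footprint median of all genes is itself 0.74, and the share of all genes past 2-fold was not taken. There 3 neuron, 13 cartilage, 4 retina, 2 skin and 1 liver markers rose in footprints. The cartilage footprint median was then 1.32. No marker in these lists was at 0 in any library. The part of these tissues in the members' values was not tested.

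By distance on the RNA and footprint log2 ratios, genes were ranked around the fast medians, -0.62 for RNA and -1.51 for footprints. No fast member lies at that point, with myhz1.3 at -0.49 and -0.86 and myhz2 at -0.75 and -2.17. Among 5179 other genes of at least 20 CPM in each assay, the nearest was top2a, a DNA topoisomerase (distance 0.05). Next came the lens crystallin gene crygm2d17 (0.07), agr2, crygm2d9 and the muscle actin gene actc1c (0.15). The slow medians are the values of smyhc2 (-0.29 and -1.02). Nearest to them were the crystallin gene crygm2d12 (0.02), lbr, a protein of the inner nuclear membrane (0.02), cryba2b, GFUS and rps2, a ribosomal protein (0.07). Likeness here is over 2 ratios from 4 libraries.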

How the data were processed

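Heads of noc4l mutants and siblings were measured by RNA-seq and Ribo-seq, with 1 library for each assay and genotype. HISAT2 and featureCounts are named in the submitters' processing notes. Not given in the sources used here are their versions, the build, the annotation and how multi-mapping reads were treated. Per gene and genotype the authors deposited an estimated count in each table, beside FPKM for RNA-seq and TPM for Ribo-seq. The authors also deposited the log2 fold change, p-value and FDR of their own comparisons, which were not used.

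Deposited counts were used unrounded. A Ribo-seq row without a gene ID (0.000746% of mutant and 0.00303% of sibling counts) was left out. Members were joined to the RNA-seq table by ID. TMM factors were computed with edgeR 4.0.16 in R 4.3.3 over each whole table, and log2 ratios of mutant to sibling were taken after 0.5 counts were added. Intervals were exact Poisson for counts, exact conditional binomial for ratios, Clopper-Pearson for shares and, for translation efficiency, from the Poisson error of the 4 counts. With 1 library per group no test was made. The calculation was tested on simulated Poisson counts built from the sibling profile for both genotypes. These did not carry the difference in the 4 most abundant loci, shared reads or variation between replicates, so the calculation was not tested in those respects. Python 3.11.15, numpy 2.4.6, pandas 2.3.3, scipy 1.17.1 and matplotlib 3.10.9 were used.

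Named genes were all members, noc4l, and up to 4 most abundant genes and up to 4 of the largest ratio in each list. The 5 genes nearest to the fast medians and to the slow medians were also named, as were unc45b and further fast troponin I genes. Members and lists were chosen with earlier results of these data known. Alternatives were other scalings, deposited FPKM and TPM, other added counts and minimums, and ratios relative to muscle markers. Sequences of the genes were not used here.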

Additional observations from a re-analysis of the deposited data

How the results depend on the processing

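No paired analysis was possible because each group holds 1 library. With a minimum of 10 counts or none, 2 members were lower in RNA, since myha then enters, and relative to the muscle marker median 3 were. In deposited TPM, with 1 or 0.1 added, 2 members (myhz1.1 and myhz1.2) were higher and 3 lower in footprints, and smyhc2 changed sign to 0.060 and 0.063. Translation efficiency was lower in 1 member, myhb, under total counts, in deposited FPKM and TPM with 1 or 0.1 added, and relative to the muscle marker median. The fast minus slow difference in RNA was -0.46 with no minimum, -0.046 from summed counts, -0.83 without smyhc3 and -0.20 without myhz1.1l. In footprints it was -1.15 with no minimum and without myhz1.1, and it turned to 0.071 from summed counts and to 0.16 without myhz1.1l. In translation efficiency it was 0.12 from summed counts and 0.69 without smyhc2. Of 210 values of single members under the alternatives, 2 changed sign from a called value, both for smyhc2 footprints. Another 108 moved by more than their counting interval and 100 did not. Values that were not called and changed sign are among the 108. They include translation efficiency of myhz1.1 under total counts (0.18) and footprints of myhz1.3 in deposited TPM (0.19 and 0.22). Median-of-ratios factors, 5 added counts and leaving out the 4 most abundant loci changed no count of calls. None of these moved a member value by more than its counting interval, so the tally of 108 and 100 depends on which alternatives were listed. A change of scaling shifts all members of a comparison alike, so the 210 values are not separate checks. Counting intervals were widest for myha and smyhc3, and the effects of missing replicates and of the unknown division of shared reads were not measured.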
